A study of Mus musculus with 7 samples.

Results

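Genes that act in signalling or in the nucleus were followed in growth plates of B6 × CAST F1 mice. They are *Csk*, *Pml*, *Pias1*, *Map2k5*, *Fem1b*, *Senp8*, *Arid3b*, *Arih1*, *Clk3* and *Ulk3*, 10 of the 43346 genes in the deposited counts. They were chosen by symbol, as the genes of these roles that overlap 57.3 to 63.3 Mbp of chromosome 9 (GRCm38/mm10), the span of the femur length QTL *Feml2*. That span holds 64 protein-coding genes, of which 55 were tested, so that 45 tested genes lie beside the 10. The study also gives a later start for the confidence interval of *Feml2*, close to *Ulk3*, which may lie just outside it. Of the 10 genes, 9 are on the minus strand and *Ulk3* is on the plus strand.

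The samples were proximal and distal tibial growth plates of 7 male F1 mice from a cross of C57BL/6J (B6), a common inbred strain, and CAST/EiJ (CAST), a small wild-derived strain, killed at 21 days of age, with no treatment named. RNA depleted of ribosomal RNA was sequenced, and counts were assigned to the B6 or the CAST allele, so both alleles were read in the same tissue of the same mouse. The mice carry the numbers 1, 2, 3, 4, 5, 7 and 8, and their libraries held 14098019 counts in mouse 7 to 37849667 in mouse 5. The growth plate is the cartilage in which long bones lengthen, here taken as bulk tissue and not as sorted chondrocytes. The direction of the cross is not given in the sources used here, so an effect of the parent and an effect of the strain cannot be told apart.

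The label of the tissue was checked against marker genes. All 10 chondrocyte markers were detected in every mouse and summed to 57223 to 105782 CPM, counts scaled to a common library size with TMM factors, with *Col2a1* alone at 38742 to 80848. Markers of neighbouring tissue were present in every mouse too, with sums of 34679 to 67577 CPM for osteoblasts, 3295 to 8189 for erythroid cells, 1003 to 1977 for neutrophils and 2899 to 5457 for skeletal muscle. Most of the osteoblast sum was *Col1a1*, alone at 32602 to 65660 CPM.

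Several of the 10 genes act in related steps. SUMO and NEDD8 are small proteins that enzymes attach to other proteins, as they do ubiquitin. PML builds nuclear bodies that gather SUMO-modified proteins, and PIAS1 is a SUMO ligase first known as an inhibitor of STAT factors. SENP8 is a protease of NEDD8, FEM1B is the substrate receptor of a cullin ubiquitin ligase and ARIH1 is a ubiquitin ligase that works with cullin ligases carrying NEDD8. CSK and MAP2K5 are kinases of the cytoplasm: CSK holds Src family kinases inactive, and MAP2K5 switches on the MAP kinase ERK5. CLK3 phosphorylates the SR proteins of splicing, ULK3 acts on the Gli factors that carry hedgehog signals, and ARID3B binds AT-rich DNA. Hedgehog signalling is a known regulator of chondrocyte proliferation in the growth plate.

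Sequences are shown for the genes whose allele counts are described most closely. Of the coding differences between B6 and CAST that the study lists as potentially high-impact, *Pml* carries 3, all in exon 3 of 9. The text of the study also names an in-frame insertion in a RefSeq exon of *Arid3b*. It names a frameshift in *Arid3b* as well, in a predicted exon outside the RefSeq transcript. These and other differences were not analysed here. On the plus strand of chromosome 9 they are G58234760T, C58234761T and C58234914T, B6 base first. Counted from 1 at the A of the start codon on the coding strand, the adjoining pair is C788A and G787A, both in codon 263, and the other is G634A in codon 212. Each allele is given 5′ to 3′ on the coding strand, with the differing bases in capitals.
Pml codon 263, B6 allele: gacagtgcccatGCacagatgtgctc
Pml codon 263, CAST allele: gacagtgcccatAAacagatgtgctc
Pml codon 212, B6 allele: tgccgaggctgcGccaagcctctgt
Pml codon 212, CAST allele: tgccgaggctgcAccaagcctctgt
*Arih1* carries 1 listed difference, C59396591T on the plus strand, which is G1230A in exon 12 of 14 and the third base of codon 410. In the transcript used here that codon reads CAG from B6 and CAA from CAST, codons for the same amino acid.
Arih1 codon 410, B6 allele: ggcggccctgcaGagatacctgttc
Arih1 codon 410, CAST allele: ggcggccctgcaAagatacctgttc

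The RefSeq start sites of the 10 genes (GRCm38.p6) gave 12 promoter windows of 250 bases before to 50 after the start. All 12 lay above the median of all promoters in CpG number, with 9 to 50 CpG (median 24.5) and a GC content of 53.7 to 79.7%. Letters of common promoter motifs were searched on both strands, and matches may overlap. The GC box GGGCGG was found in 10 of the 12 windows, against 35.7% of all 32851 promoter windows. The box CCAAT was found in 1 window (37.4% of all), TATAAA in 0 (13.6% of all), the ETS core CGGAAG in 3 (16.9% of all), TGACGTCA in 0 (1.79% of all) and the E-box CACGTG in 1 (7.15% of all). Upstream stretches of the reference strain, B6, are printed 5′ to 3′ on the minus strand, those of both genes called below and that of *Senp8*, the gene with the lowest level. Annotated exons were left out, and capitals mark motif matches in either orientation.
Arid3b, chr9:57836794-57837029: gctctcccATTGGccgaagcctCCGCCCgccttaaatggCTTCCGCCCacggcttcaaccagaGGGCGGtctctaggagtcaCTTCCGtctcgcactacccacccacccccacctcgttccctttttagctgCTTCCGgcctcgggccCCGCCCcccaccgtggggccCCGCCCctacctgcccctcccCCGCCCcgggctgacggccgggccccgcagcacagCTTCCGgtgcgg
Pias1, chr9:62980884-62981129: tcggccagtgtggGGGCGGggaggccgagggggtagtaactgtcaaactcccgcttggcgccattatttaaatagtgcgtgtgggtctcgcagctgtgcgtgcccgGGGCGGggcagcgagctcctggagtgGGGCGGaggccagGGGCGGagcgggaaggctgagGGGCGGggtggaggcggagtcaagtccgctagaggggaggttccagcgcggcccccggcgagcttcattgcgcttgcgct
Senp8, chr9:59750711-59750895: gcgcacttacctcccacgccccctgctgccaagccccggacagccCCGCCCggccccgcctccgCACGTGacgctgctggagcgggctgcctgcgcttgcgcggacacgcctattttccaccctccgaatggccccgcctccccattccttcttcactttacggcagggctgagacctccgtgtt
The *Arid3b* stretch holds 6 GC boxes, 4 ETS cores and 1 CCAAT box, the *Pias1* stretch holds 5 GC boxes, and the *Senp8* stretch holds 1 GC box and 1 E-box. The 185 bases of the *Senp8* stretch are the whole gap between the annotated starts of *Senp8* and of *Myo9a*, which is read in the other direction.

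The question put to the counts was whether the B6 and CAST alleles of each gene differed in level. In the fit across all genes, edgeR's likelihood-ratio test with Benjamini-Hochberg adjustment over all 21805 tested genes, *Arid3b* was higher from the B6 allele and *Pias1* was higher from the CAST allele at an FDR under 0.20, the threshold of the study. The other 8 genes did not pass. The study named neither *Arid3b* nor *Pias1* among the *Feml2* genes it reported with an allele difference, so these calls belong to the fit made here. At the same threshold this fit called more *Feml2* genes than the study reported. Its FDR values are therefore not comparable with those of the study, and the reason was not tested. Of all tested genes 32.6% were called at this threshold, 15.4% with CAST higher and 17.2% with B6 higher, so 2 of 10 is not above that share. The share was 31.2% over autosomal genes and 33.6% over 14526 deeper genes (autosomal, and 10 counts or more in each mouse). Among the other 45 tested protein-coding genes of *Feml2*, 17 were called, 12 with CAST higher and 5 with B6 higher. The log2 fold change (CAST over B6) was above 0 for 6 of the 10 genes and below 0 for 4. Its median size was 0.12, against 0.22 over all tested genes and 0.20 over the other 45 *Feml2* genes. Exact two-sided sign-flip permutation tests over the 7 mice were run as well, in which the smallest possible p is 0.0156, and their intervals are given at 95.3%.

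**Figure D1:**
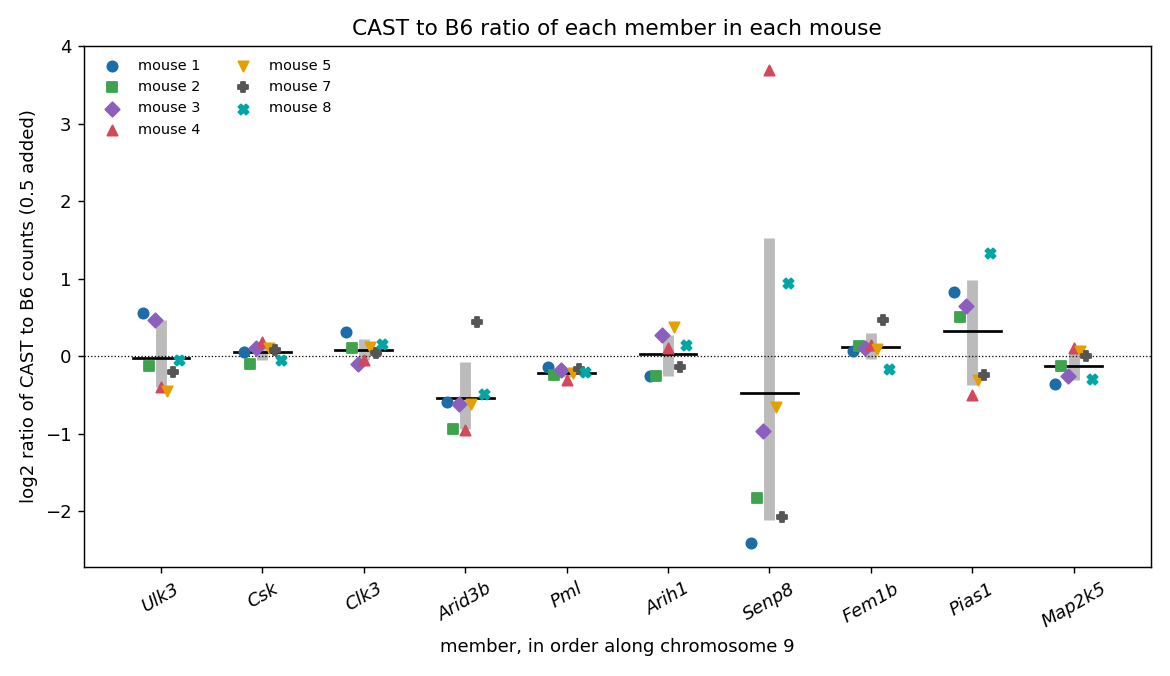
Each mouse's log2 ratio, CAST over B6 with 0.5 added to both counts, is plotted for each of the 10 genes in the order of their positions on chromosome 9. Points are mice, black lines are means over 7 mice and grey bars are exact 95.3% intervals. All 7 points of *Pml* lie below 0, 6 of 7 points of *Arid3b* lie below 0, and the points of *Pias1* and *Senp8* lie on both sides.

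*Arid3b*, on chromosome 9 from 57790353 to 57836793, showed the smallest FDR of the 10 genes. The CAST allele had 49.5 counts in the lowest mouse, 63.3 in the median mouse and 142 in the highest. The B6 allele had 38.1, 109 and 217 in the same order. The ranges of the alleles overlapped between mice, whose libraries differed in depth, and within a mouse B6 was higher in 6 of 7. The log2 ratios were -0.59, -0.93, -0.62, -0.95, -0.61 and -0.49 in mice 1, 2, 3, 4, 5 and 8, and 0.44 in mouse 7. Mouse 7, the shallowest library, was the only one with more CAST counts (51.9) than B6 counts (38.1). In edgeR the log2 fold change was -0.55 (likelihood-ratio FDR = 0.00670) and the mean log2 ratio was -0.53 ± 0.465 (SD, n = 7), with an exact interval of -0.93 to -0.07. The exact sign-flip permutation test gave p = 0.0312, or 0.108 after Benjamini-Hochberg adjustment over all tested genes. The edgeR call held with each mouse left out in turn, at an FDR of 0.000388 to 0.0378. In 3 mice its total held a fraction of a read, which marks reads divided with another gene. *Arid3b* also spans *Gm17231*, an antisense gene with a mean of 1.25 counts.

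*Pias1*, from 62878368 to 62987924, was called in the other direction, but its mice fell on both sides of 0. The CAST allele had 331, 210.5, 226 and 250.2 counts in mice 1, 2, 3 and 8, where the B6 allele had 186, 147.5, 145 and 98.8. In mice 4, 5 and 7 the CAST allele had 93.6, 276 and 91.3 counts, where the B6 allele had 132, 341 and 108. The log2 ratios were thus 0.83, 0.51, 0.64 and 1.34 in the first 4 mice and -0.50, -0.30 and -0.24 in the other 3. CAST was higher in 4 mice and B6 in 3. In edgeR the log2 fold change was 0.36 (likelihood-ratio FDR = 0.144), and the mean log2 ratio was 0.33 ± 0.683 (SD, n = 7), with an exact interval of -0.37 to 0.99 and an exact sign-flip permutation p of 0.25.

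The call of *Pias1* depended on the fit. With the mouse as a block, which compares the alleles within each mouse, the edgeR FDR was 0.3004 in the likelihood-ratio test and 0.349 in the quasi-likelihood test. It was 0.225 with 1 library size per mouse, and 0.415, 0.291, 0.312 and 0.544 without mouse 1, 2, 3 or 8. The total of *Pias1* was whole in all 7 mice, to a tolerance of 0.0001. The SD of its ratio was 4.17 times the SD that counting alone would give, a factor reached by 0.709% of the deeper genes. How the authors summed read ends and lanes is not given in the sources used here. The average number of read pairs that the study states for a sample is below the count total of every library. The counts thus cannot all stand for separate read pairs. Counting error and every factor set against it rest on taking each count as independent. Where several counts come from 1 read pair, counting error is larger than given and these factors are smaller. The 3 mice with B6 higher were also those with the most neutrophil and the fewest skeletal muscle marker counts. All 5 neutrophil markers were detected in every mouse, with sums of 1749 to 1977 CPM in mice 4, 5 and 7 against 1003 to 1457 in the other 4. All 4 skeletal muscle markers were detected as well, with sums of 2899 to 3312 CPM in mice 4, 5 and 7 against 3699 to 5457 in the other 4. The sums of chondrocyte, osteoblast, osteoclast, erythroid, B-lineage and endothelial markers did not set mice 4, 5 and 7 apart from the other 4. The part of any list in the ratio was not tested.

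**Figure D2:**
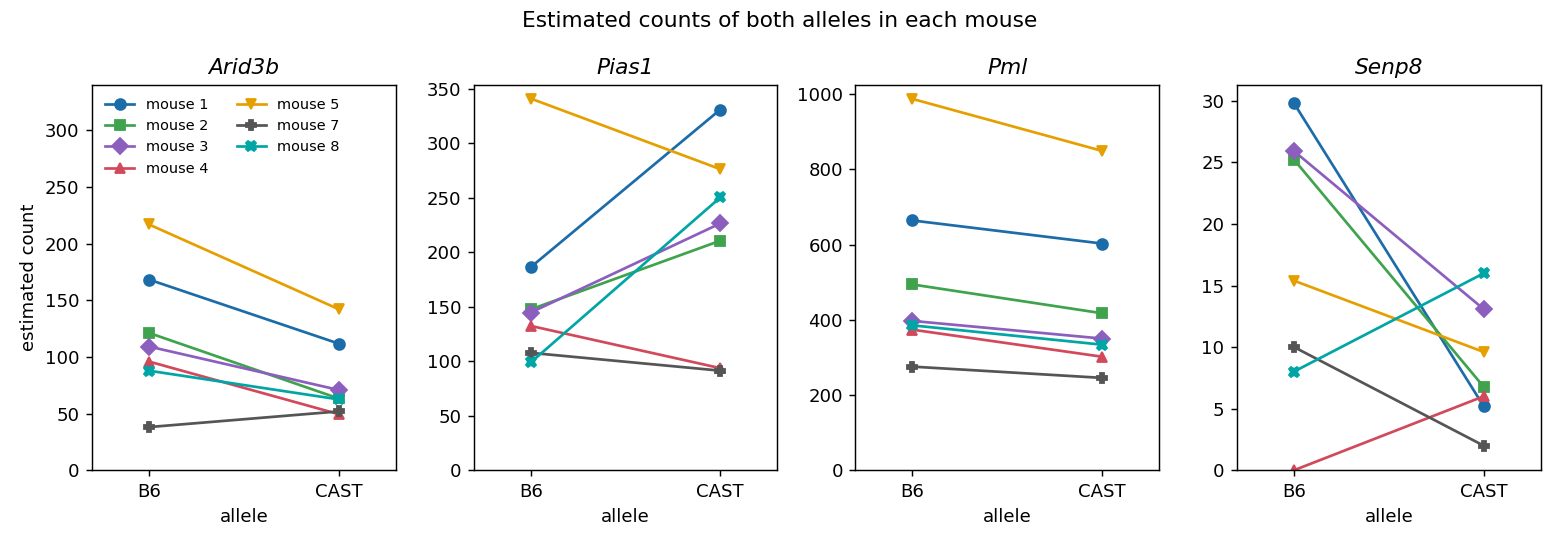
Estimated counts of the B6 and CAST alleles are plotted for *Arid3b*, *Pias1*, *Pml* and *Senp8*, with 1 line per mouse joining its alleles. Lines of *Pml* slope down in all 7 mice and those of *Arid3b* in 6, whereas lines of *Pias1* slope up in 4 mice and down in 3.

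*Pml*, from 58218076 to 58249786, was the single member with the same direction in all 7 mice, which 23.1% of all tested genes and 26.3% of the deeper genes showed. CAST counts were 246 in the lowest, 350.0 in the median and 849 in the highest mouse, and B6 counts were 275, 397 and 987. Mouse 4 had the lowest log2 ratio, -0.31, and mouse 1 the highest, -0.14, around a median of -0.21. B6 was thus higher by a small and steady amount, a mean log2 ratio of -0.21 ± 0.055 (SD, n = 7), with an exact interval of -0.26 to -0.16. The exact sign-flip permutation test gave p = 0.0156, the smallest that 7 mice allow, or 0.0685 after adjustment over all tested genes. In the fit by allele alone the log2 fold change was -0.19 and did not pass (edgeR likelihood-ratio FDR = 0.379). With the mouse as a block it passed, at an edgeR FDR of 2.86e-06 in the likelihood-ratio test and 0.00151 in the quasi-likelihood test. In those fits 42.7% and 37.6% of all tested genes were called.

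The spread of the *Pml* ratio was below counting error. Its SD was 0.548 times the SD expected from counting, and 5.29% of the deeper autosomal genes had a factor as low. The total of *Pml* was not whole in any of the 7 mice, so part of its reads were divided with other genes. Reads that match both alleles are divided too, and their number is not given in the sources used here. The part of either division in the small spread was not tested. *Pml* spans the microRNA gene *Mir6385*, which had 0 counts.

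*Senp8*, from 59734259 to 59750710, had the fewest counts of the 10 genes, and its allele difference did not pass. Its total was 6 counts in the lowest mouse, 25 in the median and 39 in the highest, and it was the only member under 10 counts in any mouse. The CAST allele had 5.203, 6.78, 13.1, 9.61 and 2.00 counts in mice 1, 2, 3, 5 and 7, where the B6 allele had 29.8, 25.2, 25.9, 15.4 and 10.002. B6 was higher in these 5 mice. Mouse 8 had 16.0 CAST and 8.01 B6 counts, and all 6 counts of mouse 4 were assigned to CAST. edgeR gave a log2 fold change of -0.85 with an edgeR likelihood-ratio FDR of 0.201, just above the threshold. The mean log2 ratio was -0.47 ± 2.15 (SD, n = 7), with an exact interval of -2.12 to 1.52 and an exact sign-flip permutation p of 0.594. Without mouse 4 the edgeR FDR was 0.0379 and without mouse 8 it was 0.0553. It also fell just under the threshold with DESeq2 size factors (0.19998), with unrounded counts (0.198) and with 1 library size per mouse (0.189), but was 0.479 with the mouse as a block.

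The other NEDD8 and ubiquitin genes had higher counts. Allele counts here and below are not scaled for depth, so their SD includes differences in depth between libraries. The log2 ratios compare the alleles within a mouse. *Fem1b*, from 62791821 to 62811934, had 554 ± 207 CAST and 517 ± 208 B6 counts (SD, n = 7). Its log2 ratio was 0.06 to 0.47 in 6 mice and -0.16 in mouse 8, with an exact interval of -0.03 to 0.31 for the mean. A log2 change of 0.13 was fitted, which did not pass (edgeR likelihood-ratio FDR = 0.363), but reached an FDR of 0.108 with the mouse as a block in the likelihood-ratio test and 0.202 in the quasi-likelihood test. *Fem1b* spans *Gm26609*, a noncoding gene with a mean of 4.18 counts. *Arih1*, from 59388258 to 59486618, had 446 ± 184 CAST and 425 ± 139 B6 counts (SD, n = 7), with log2 ratios of -0.26 to 0.39 and CAST higher in 4 mice. The fitted log2 change was 0.07 (edgeR likelihood-ratio FDR = 0.741), and the exact interval of the mean ratio, -0.26 to 0.27, covers differences of either sign.

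Of the cytoplasmic kinases, *Csk* had the most counts of the 10 genes and the narrowest interval around 0. *Csk*, from 57626646 to 57653631, had 1202 ± 447 CAST and 1162 ± 434 B6 counts (SD, n = 7). Its log2 ratios lay between -0.10 and 0.18, CAST was higher in 5 mice, and the exact interval of the mean was -0.05 to 0.14. The fitted log2 change of 0.07 had an edgeR likelihood-ratio FDR of 0.804, and with the mouse as a block 0.177 (0.220 in the quasi-likelihood test). *Map2k5*, from 63163768 to 63377902 and so reaching past the end of the interval, had 214 ± 61.7 CAST and 235 ± 69.6 B6 counts (SD, n = 7). B6 was higher in 4 mice, CAST in 2, and mouse 7 had 143.5 counts from each allele. The log2 ratios of *Map2k5* were -0.36 to 0.10, and its log2 fold change was -0.10 (edgeR likelihood-ratio FDR = 0.571), with an exact interval of -0.31 to 0.07 for the mean ratio.

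The splicing kinase and the hedgehog kinase gave no call in the fit by allele alone. *Clk3*, from 57750624 to 57765860, had 618 ± 201 CAST and 575 ± 163 B6 counts (SD, n = 7), with log2 ratios of -0.10 to 0.31 and CAST higher in 5 mice. Its log2 fold change was 0.11 (edgeR likelihood-ratio FDR = 0.459). With the mouse as a block the FDR was 0.110, and 0.175 in the quasi-likelihood test. Its total was not whole in any mouse, and its 3′ end overlaps that of *Edc3* on the other strand, so its values are uncertain where the counting divided reads. *Ulk3*, from 57589452 to 57596233, had 106 ± 41.7 CAST and 105 ± 34.9 B6 counts (SD, n = 7). Its log2 ratios ran from -0.45 to 0.56, with CAST higher in mice 1 and 3 only, and its log2 fold change was 0.02 (edgeR likelihood-ratio FDR = 1). The exact interval of the *Ulk3* mean ratio was -0.39 to 0.47, and its total was not whole in any mouse.

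Over the 10 genes, 5 were called with the mouse as a block in the likelihood-ratio test (*Csk*, *Pml*, *Fem1b*, *Arid3b* and *Clk3*) and 3 in the quasi-likelihood test (*Pml*, *Arid3b* and *Clk3*). Those fits called 42.7% and 37.6% of all tested genes. With 1 library size per mouse the called pair was *Arid3b* and *Senp8*, both B6 higher, in place of 1 gene in each direction. At an FDR under 0.05 only *Arid3b* remained of the 10 in the fit by allele alone, against 4816 of all 21805 tested genes. Between mice, the SD of the log2 ratio exceeded counting error for 9 of the 10 genes, all but *Pml*, and for 83.4% of the deeper autosomal genes. The factor was 2.48 for *Arih1*, 1.98 for *Fem1b*, 2.03 for *Arid3b*, 1.57 for *Csk* and 1.298 for *Map2k5*, against a median of 1.56 over the deeper genes.

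**Figure D3:**
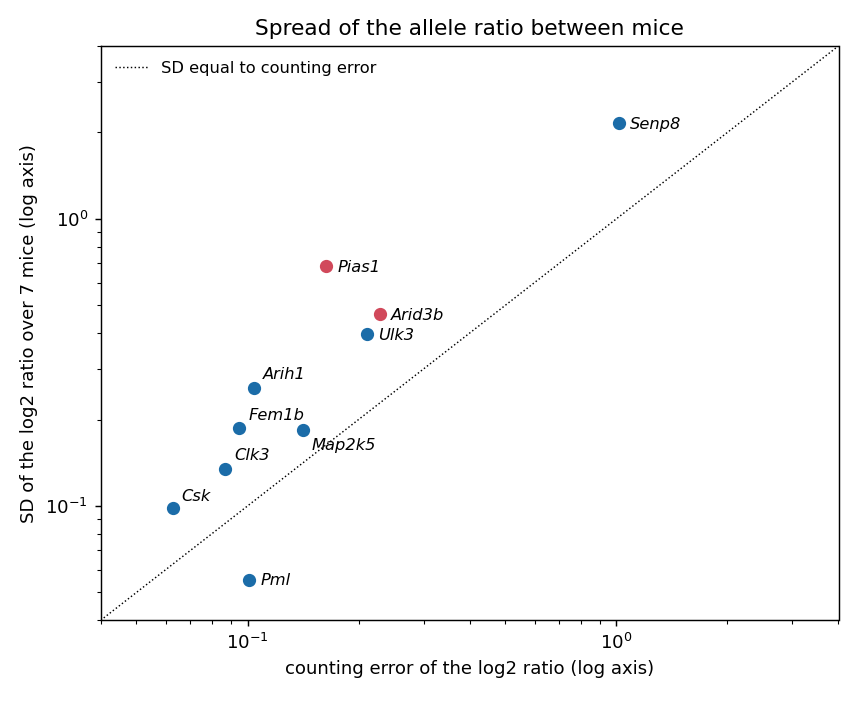
The SD of the log2 ratio over 7 mice is plotted against its counting error for each of the 10 genes, both on log axes, with red points for the called genes and a dotted line where both are equal. *Pias1* lies farthest above the line, at 4.17 times counting error, and *Pml* is the only gene below it, at 0.548 times.

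With both alleles together, the levels of the 10 genes spanned a wide range in the growth plate. Levels between genes are given as CPM per kb of annotated exon. *Csk* had the highest level, 17.3 to 27.0 over the mice with a median of 24.9, and *Senp8* the lowest, 0.0817 to 0.342 with a median of 0.259. *Csk* was above *Pml*, the next gene (median 6.51), in all 7 mice by 3.15-fold to 4.63-fold. *Pml*, *Fem1b* (median 5.70), *Clk3* (5.41) and *Map2k5* (5.27) had overlapping levels, and neighbours among them kept this order in 4 or 5 of 7 mice, so their order is not set. *Arih1* (median 4.15) lay below *Map2k5* in all 7 mice. *Pias1* (2.03) and *Ulk3* (1.90) overlapped each other, and both lay below *Arih1* in every mouse. *Arid3b* (0.811) was below *Ulk3* and above *Senp8* in all 7 mice.

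Levels of a gene between mice are given as CPM. *Arih1* was the steadiest, at 30.7 to 35.7 CPM with a CV of 5.72%, and *Fem1b*, at 37.0 to 44.0, had a CV of 7.29%. *Pml* varied 1.81-fold, from 26.0 CPM in mouse 3 to 47.0 in mouse 5 (CV 18.9%). *Csk* varied 1.56-fold, from 64.8 in mouse 3 to 101 in mouse 7 (CV 14.9%), and *Arid3b* 1.47-fold, from 6.26 in mouse 7 to 9.19 in mouse 5 (CV 16.5%). Mouse 3, lowest in *Csk* and *Pml*, also had the lowest sums of erythroid (3295 CPM), B-lineage (235) and osteoclast markers (4076) and the highest endothelial sum (211). Mouse 5, highest in *Pml*, had the highest erythroid (8189) and neutrophil sums (1977) and the lowest skeletal muscle sum (2899). Mouse 7, highest in *Csk*, had the highest B-lineage sum (765) and the lowest osteoblast sum (34679). All markers of these lists were detected in every mouse, and their part in these levels was not tested. In bulk tissue, fewer cells of a type and less RNA per cell cannot be told apart. *Senp8* had a CV of 37.6%, at 6 to 39 counts per mouse.

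**Figure D4:**
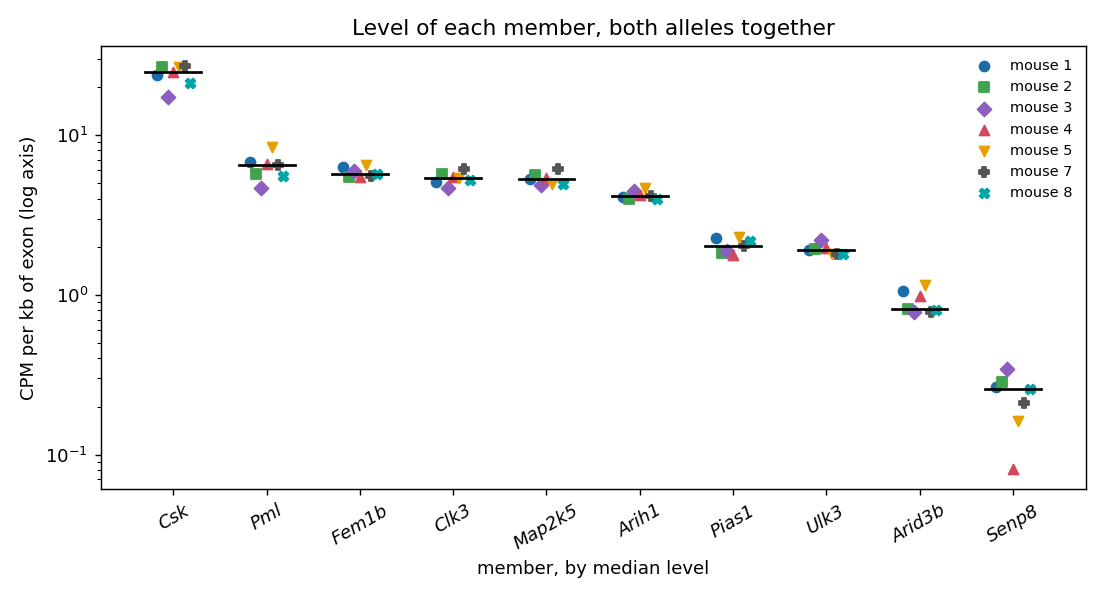
CPM per kb of exon, both alleles together, are plotted on a log axis for each of the 10 genes, in the order of their medians (black lines), with 1 point per mouse. *Csk* stands above all other members in every mouse, and *Senp8* below.

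Genes that work with the 10 were counted in 7 lists, which were written with earlier results of these data known and are described by counts only. Of 110 tested genes, 30 were called (27.3%, against 32.6% of all tested genes), 16 with CAST higher and 14 with B6 higher, or 10 and 14 with 1 library size per mouse. With the mouse as a block 54 were called, in a fit that called 42.7% of all tested genes. The partners of *Senp8*, *Fem1b* and *Arih1*, the NEDD8 and cullin-RING list, had 12 of 24 called, 5 with CAST higher and 7 with B6 higher. In this list 10 of the 24 genes kept 1 direction in all 7 mice, against 23.1% of all tested genes. The NEDD8-conjugating enzyme *Ube2m* had 882 ± 273 CAST and 620 ± 188 B6 counts (SD, n = 7), so that CAST was higher by a log2 value of 0.52 (edgeR likelihood-ratio FDR = 4.72e-06). The other NEDD8-conjugating enzyme, *Ube2f*, was higher from B6, with 258 ± 92.9 CAST and 355 ± 147 B6 counts (SD, n = 7) and a fitted change of -0.42 on the log2 scale (edgeR FDR = 0.000463). The scaffold *Cul4a* was higher from CAST (log2 fold change 0.44, edgeR FDR = 3.81e-06), and the RING subunit *Rnf7*, which pairs with *Ube2f*, was higher from B6 (-0.43, edgeR FDR = 0.000545). The modifier *Nedd8* itself was higher from B6 (-0.43, edgeR FDR = 0.00117), as was *Nae1*, a subunit of its activating enzyme (-0.59, edgeR FDR = 0.00109). *Fem1c*, a paralog of *Fem1b*, was higher from CAST (0.29, edgeR FDR = 0.0297). *Fem1a*, the other paralog, had more B6 counts in all 7 mice, with a log2 fold change of -0.11 that did not pass (edgeR FDR = 0.379) except with the mouse as a block (6.96e-05). *Arih2*, the relative of *Arih1*, was higher from CAST (0.20, edgeR FDR = 0.0900).

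The partners of *Pml* and *Pias1*, 23 genes of SUMO and of PML bodies, had 2 called, both with CAST higher, the SUMO protease *Senp7* (log2 fold change 0.29, edgeR likelihood-ratio FDR = 0.109) and the SUMO-targeted ubiquitin ligase *Rnf4* (0.21, edgeR FDR = 0.134). With the mouse as a block 8 were called, 4 in each direction, and 6 in the quasi-likelihood test with the block. Those fits called 42.7% and 37.6% of all tested genes. In the fit by allele alone the called share of this list was 8.70%, against 32.6% of all tested genes. None of the 23 had the same direction in all 7 mice, which 23.1% of all tested genes had. The MAP2K5 list held 8 genes of the ERK5 cascade, its MAP3 kinases, ERK5 itself and MEF2 and KLF factors. With edgeR's likelihood-ratio test 0 of them were called and 0 had an unadjusted p under 0.05, and 0 were called by its quasi-likelihood test and by DESeq2, while with the mouse as a block 3 were called, or 1 in the quasi-likelihood test. ERK5 (*Mapk7*) had a log2 fold change of -0.11 (edgeR likelihood-ratio FDR = 0.480, or 0.155 with the block), with 257 ± 84.1 CAST and 283 ± 88.3 B6 counts (SD, n = 7).

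Of 15 genes that act with *Csk*, 3 were called with CAST higher and 2 with B6 higher (33.3%, against 32.6% of all tested genes). With the mouse as a block 10 in all were called, in the fit that called 42.7% of all tested genes. *Src*, the kinase that CSK holds inactive, had 827 ± 238 CAST and 683 ± 242 B6 counts (SD, n = 7), with log2 ratios above 0 in all 7 mice and a fitted log2 change of 0.32 (edgeR FDR = 0.00745). *Lck*, a Src family kinase of lymphocytes, was higher from CAST as well (0.49, edgeR FDR = 0.0478). Among 15 tested splicing genes for CLK3, 2 were called in each direction (7 in all with the block), *Srsf9* among them (0.28, edgeR FDR = 0.0373). Among 14 genes for ULK3, 2 were called in each direction (8 in all with the block), with the hedgehog target *Gli1* higher from CAST (0.25, edgeR FDR = 0.174) and the receptor *Smo* higher from B6 (-0.21, edgeR FDR = 0.167). Of 11 tested ARID genes beside *Arid3b*, 2 were called with CAST higher and 1, *Arid1b*, with B6 higher (-0.23, edgeR FDR = 0.0383). The called shares of the splicing, ULK3 and ARID lists were 26.7%, 28.6% and 27.3%, each below the 32.6% of all tested genes.

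**Figure D5:**
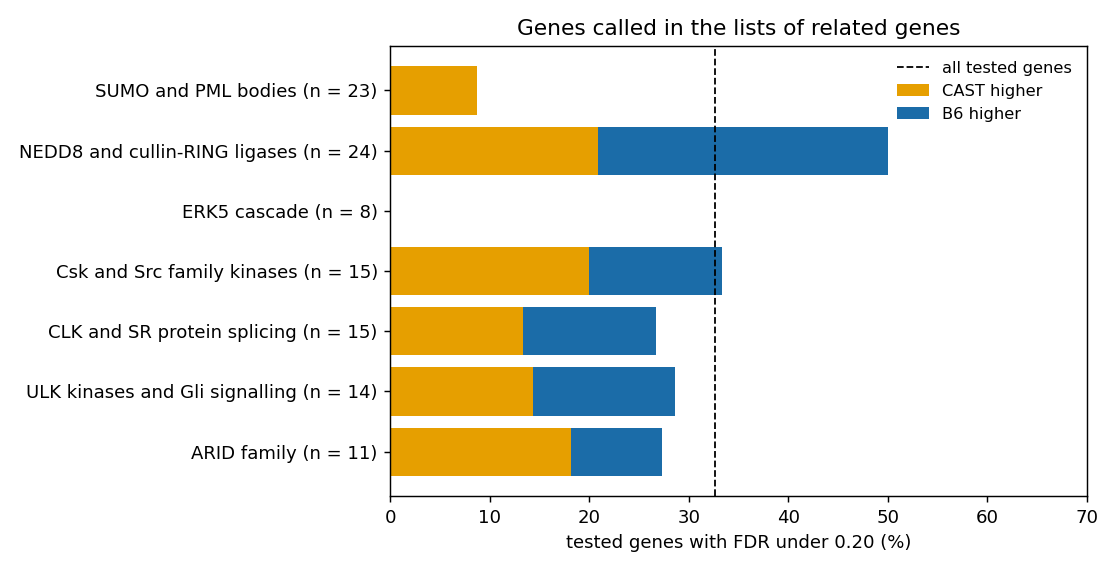
The share of tested genes with an FDR under 0.20 is shown as bars for each of the 7 lists, split into CAST higher and B6 higher, with a dashed line at 32.6% for all tested genes. The NEDD8 and cullin-RING list reached 50% (12 of 24), and the ERK5 list had 0 of 8.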

How the data were processed

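Tibial growth plates of 7 F1 mice were analysed as 7 replicates of 1 condition, each with both alleles. The authors aligned reads by Bowtie against a combined transcriptome of both strains (mm10), with at most 3 mismatches, and used EMASE to estimate the counts of each gene by allele. The deposited expected counts carry no normalization and can hold fractions, since reads that match several genes or both alleles are divided. How many reads told the alleles apart is not given in the sources used here. The totals were 14098019 to 37849667 counts per mouse, all above the average number of read pairs per sample that the study states. The number of counts limits the precision of genes such as *Senp8*.

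A gene was tested where every mouse had a count above 0 for either allele (21805 genes). Of these, 1771 had a total at or under 1e-06 in at least 1 mouse. Counts were rounded and fitted with edgeR 4.0.16 in R 4.3.3 (TMM factors, glmFit and glmLRT, allele only), and FDR values were adjusted over all tested genes. Sign-flip tests used log2 ratios with a pseudocount of 0.5 and all 128 sign patterns. Counting error was taken from Poisson variances of both alleles, with each count taken as independent, and covers no other source. Alternatives were the quasi-likelihood test, DESeq2 1.42.0, the mouse as a block, other library sizes, filters and thresholds, counts without rounding and leaving out each mouse, and a floor of 1e-06 in every mouse was added after seeing the data. Scripts were tested on simulated data. The alleles are paired, since a mouse gave 1 library. Their deviations correlated by 0.063 on average within a mouse (-0.071 to 0.203) over 14526 genes, against -0.011 between mice.

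Names, exons and coordinates come from GENCODE release 21 of the mouse (GRCm38), which holds 42462 of 43346 identifiers, coding differences from the variant list of the study, and promoters from RefSeq. Named genes were the members, in each list up to 2 called genes per direction with the smallest P among those with the same direction in all mice, and genes next to or overlapping a member, except for an item that is not reported here. *Senp7*, *Rnf4*, *Nedd8*, *Nae1*, *Fem1a*, *Fem1c*, *Arih2* and *Mapk7* were named after their values were seen. The members and lists were chosen with earlier results of these data known.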

Additional observations from a re-analysis of the deposited data

Results flagged for a closer look

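A member had a mouse far from the others. The log2 ratio of *Arid3b* was 0.44 in mouse 7, while the other 6 mice lay between -0.95 and -0.49. The gap to the nearest mouse was 0.669 of the whole range, above the critical value of Dixon's test for 7 samples. Ratios and levels of the 10 genes gave 20 such sets of 7 values, of which about 1 is passed by chance, and 1 was. Mouse 7 was the shallowest library and had 90 counts of *Arid3b*.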

How the results depend on the processing

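Of the 10 genes, 2 were called in the fit by allele alone, 5 with the mouse as a replicate block in the likelihood-ratio test and 1 at an FDR under 0.05, and 1 to 3 with each mouse left out. *Pias1* was lost without mouse 1, 2, 3 or 8, and *Senp8* was gained without mouse 4 or 8. The quasi-likelihood test, DESeq2, the filter of at least 10 counts, no filter beyond a count in any mouse and autosomal genes alone each called *Pias1* and *Arid3b*, and 3 genes, *Senp8* with them, were called with DESeq2 size factors in edgeR, with unrounded counts and with the floor of 1e-06 added after seeing the data. The block in the quasi-likelihood test called 3. Genes of the 7 lists called numbered 30, against 54 with the replicate block, 15 at an FDR under 0.05 and 22 to 28 with a mouse left out. Over all genes, 7111 of 21805 tested were called in the fit by allele alone. The numbers were 9315 with the replicate block, 4816 at an FDR under 0.05 and 6382 to 6931 with a mouse left out. The fold change of *Ulk3* changed sign with a mouse left out (-0.0849 to 0.0983), as did the mean ratios of *Ulk3* (-0.123 to 0.0441) and *Arih1* (-0.0206 to 0.0867), none of them called. The sign-flip p of *Arid3b* was 0.0625 without any 1 of 6 mice and 0.0312 without mouse 7, and 6 mice allow no p under 0.0312. The block changed no other member's call than those of *Csk*, *Pml*, *Pias1*, *Fem1b* and *Clk3*. Causes were not tested. Counting error is widest for *Senp8*, and the filter of at least 10 counts left it out.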

Other observations

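Genes next to the members on chromosome 9 had allele ratios of their own. *Arid3b* lies between *Clk3* and *Ubl7*, a ubiquitin-like gene, which was higher from CAST in all 7 mice with a log2 fold change of 0.53 (edgeR likelihood-ratio FDR = 2.16e-05), the other direction from *Arid3b*. *Senp8* lies between *Gramd2*, higher from CAST in all 7 mice (0.68, edgeR FDR = 4.52e-12), and *Myo9a* (-0.04, edgeR FDR = 0.927). *Itga11*, a collagen-binding integrin next to *Fem1b*, was higher from CAST in all 7 mice (0.28, edgeR FDR = 0.151). *Calml4*, next to *Pias1*, had a log2 fold change of 1.26 (edgeR FDR = 0.0184) on a mean of 28.1 counts. Its log2 ratios were 2.99, 2.92 and 2.60 in mice 1, 2 and 3, while mouse 5 had 0.25, mouse 7 had 1.47, mouse 8 had -0.86 and mouse 4 had equal counts. *Tmem202*, next to *Arih1*, had a log2 fold change of 0.86 (edgeR FDR = 0.103) on a mean of 14.1 counts. *Scamp2* (0.02, edgeR FDR = 0.988), *Stoml1* (-0.01, edgeR FDR = 1), *Cln6* (0.13, edgeR FDR = 0.495), *Bbs4* (-0.26, edgeR FDR = 0.562) and *Edc3* (0.15, edgeR FDR = 0.413) did not pass. *Lman1l*, *1600029O15Rik* and *Gm25064* had means under 4 counts, and *2300009A05Rik*, next to *Map2k5*, had a log2 fold change of -0.02 (edgeR FDR = 1).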
